A study of Mus musculus with 12 samples.

Results

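The response of the intestinal epithelium to 24 h of culture was compared between the small intestine (SI) and the large intestine (LI) of the mouse. The members are the genes whose difference between cultured monolayers and fresh tissue was not the same in both regions, and they were found with 1 contrast over all 12 RNA sequencing libraries, the culture difference in SI minus the culture difference in LI (the region by culture interaction). Of 19581 genes tested, 3909 were called for this interaction, which is 20.0% of them.

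Each of the 4 groups held 3 libraries. SI tissue and LI tissue came from C57BL/6 mice, 1 mouse per library; the labels name them in vivo tissue and the study's methods name them freshly isolated crypts. SI monolayers and LI monolayers were crypts of the same strain, from young adult male or female mice, that had been seeded on Matrigel and kept for 24 h in control medium, with pooled wells in each library. All monolayers received Wnt3a, EGF, Noggin and R-spondin-1 in their medium, after a seeding medium that held further inhibitors (CHIR-99021, LDN-193189, Y-27632). No tissue sample was kept in these media. The SI crypts were taken from the jejunum and released with ice-cold EDTA. The LI crypts were released by warm digestion with collagenase, dispase and DNase, in a medium that also held Y-27632, before EDTA. Region and isolation method therefore cannot be told apart. The methods took the large intestine for culture from the same mice as the jejunum, and which libraries shared a mouse is not given in the sources used here. The pooled wells are not stated to come from separate mice, so the p-values measure the spread between these samples, which in the monolayers may be technical.

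Both epithelia are renewed from Wnt-dependent stem cells at the base of crypts. In the SI the daughter cells become mostly enterocytes, which digest sugars, peptides and fats at the brush border and take them up, with Paneth cells beside the stem cells. In the LI they become colonocytes, which take up water, salt and short-chain fatty acids, and many goblet cells, which secrete the mucus barrier. A crypt plated on a matrix loses the lumen, its bacteria, the bile and the underlying stroma, and is given growth factors in their place.

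The libraries held 59016196 to 76216530 counts, at which 3 counts, the most that a count of 0 allows, equal 0.0391 to 0.0525 CPM (counts scaled to the size of the library); this limit covers counting error only. Whether the mates of a pair were counted singly is not given in the sources used here, and 73.0% to 76.9% of the counts between 1 and 30 were even numbers. The summed level of 11 general epithelial markers was between 14929 and 38376 CPM in every library. Markers of other cells were lower and were not equal between the groups. The 16 lymphocyte markers summed to 613 to 885 CPM in SI tissue, 25.8 to 29.1 CPM in SI monolayers, 79.3 to 103 CPM in LI tissue and 4.35 to 7.07 CPM in LI monolayers. Red blood cell markers summed to 13.8 to 19.2 CPM in SI tissue, 66.4 to 72.9 CPM in LI tissue and at most 2.13 CPM in any monolayer library. Smooth muscle markers reached 45.5 CPM in 1 LI tissue library and at most 5.89 CPM in the other 11. Pancreatic acinar markers summed to 246 to 424 CPM in LI tissue and at most 59.1 CPM in any other library; nearly all of it was Cela1, an elastase, at 243 to 422 CPM in LI tissue, and 6 to 7 of the 10 markers were at 0 there. The part of these cells in the interaction was not tested, and in bulk samples fewer cells of a type and less RNA per cell cannot be told apart.

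**Figure D1:**
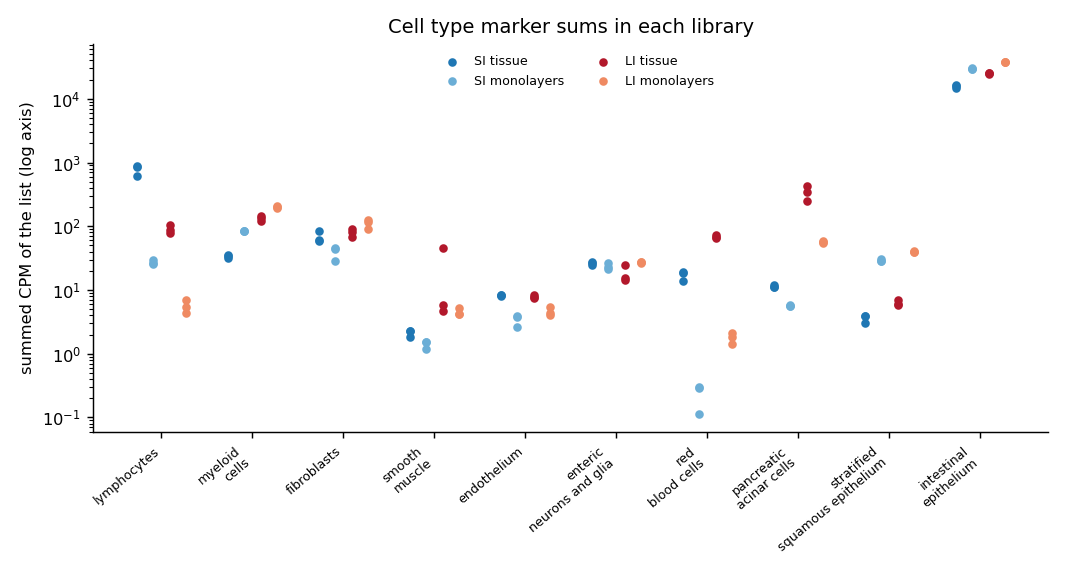
Summed CPM of 10 cell type marker lists (log axis) in each of the 12 libraries, with 1 point per library and a colour per group. Lymphocyte and red blood cell markers were higher in both tissue groups than in the monolayers of the same region, and the epithelial list was the highest list in every library.

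Transcripts typical of the other region were seen at low level in single libraries. Lct, the lactase of SI enterocytes, stood at 3.88, 0.345 and 0.0522 CPM in the 3 LI tissue libraries and at 0.696, 2.85 and 2.38 CPM in the 3 LI monolayer libraries. Car1, a carbonic anhydrase of colonocytes, stood at 8.63, 1.90 and 0.390 CPM in the SI monolayer libraries. For a gene that is near 0 in a region, the culture difference of that region rests on such levels.

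Of the 3909 called genes, 2242 had a culture difference that was higher in SI than in LI (11.4% of the genes tested) and 1667 had one that was lower in SI (8.51%). The same threshold, a log2 difference of 1 or more in either direction with an adjusted p below 0.05, called 26.1% of genes for the culture difference in SI and 38.0% for that in LI. By direction, 1902 genes rose and 3208 fell in SI, and 2832 rose and 4610 fell in LI. The interaction value given below for a gene is on the log2 scale, the log2 fold change of monolayers against tissue in SI minus that in LI, so a positive value marks a gene that kept or gained more in SI culture. Over all genes tested, its median was near 0 (-0.000208). On the linear CPM scale, 3686 of the 3909 kept the sign of their interaction.

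Most called genes moved in 1 region. Among them, 1138 fell in LI only, 554 rose in LI only, 444 fell in SI only and 272 rose in SI only. A further 590 fell and 286 rose in both regions by unequal amounts. Opposite changes were called for 234 genes, 130 that rose in SI and fell in LI and 104 that fell in SI and rose in LI. The remaining 391 passed the threshold in neither region alone.

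**Figure D2:**
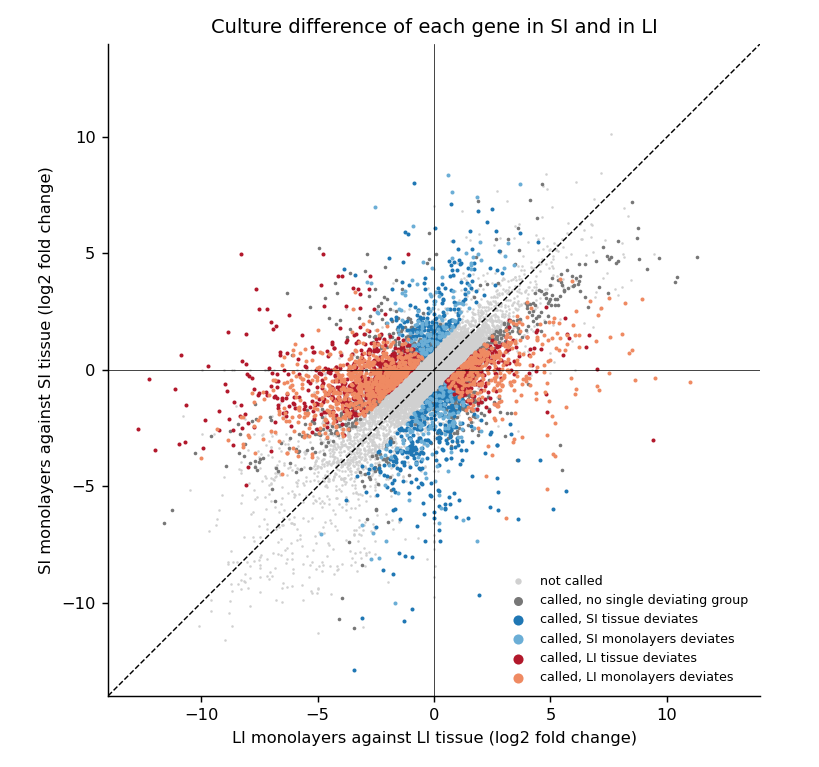
Log2 fold change of monolayers against tissue in LI (horizontal) and in SI (vertical) for each of the 19581 genes tested, coloured by the group that deviates, with equal responses on the dashed line. Genes in which an LI group deviates spread along the horizontal axis and those in which an SI group deviates along the vertical axis, as the sorting rule makes them.

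Each called gene was then sorted by the group that stood apart. The 4 group means of log2 CPM were put in order, and the group beyond the largest gap was taken as the deviating group; this is a description and was not tested. LI monolayers stood apart in 1130 genes (746 low, 384 high) and LI tissue in 1006 (702 high, 304 low). SI tissue stood apart in 616 genes (381 high, 235 low) and SI monolayers in 297 (155 low, 142 high). In the rest the largest gap split the groups in pairs: 386 genes by preparation, 211 by region and 261 crosswise, with SI monolayers and LI tissue on one side.

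**Figure D3:**
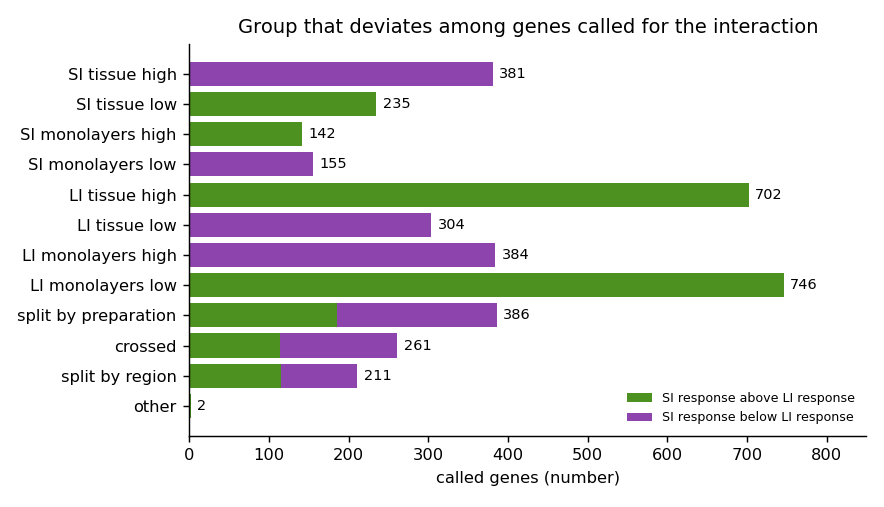
Number of genes called for the interaction in each class of deviating group (bars start at 0), coloured by the sign of the interaction, which the 8 classes with a single deviating group fix by their definition. The longest bars are LI monolayers low (746 genes) and LI tissue high (702 genes).

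Among genes of absorption, most of those called were lower, with SI tissue high or with a split by region. Of 15 nutrient transporters of the SI, 9 were called, 7 of them lower; of 15 brush border enzymes, 8 were called, 7 of them lower; and of 15 genes of lipid absorption, 8 were called, 7 of them lower. Among all genes tested, 8.51% were called lower. SI tissue stood high for 5 of the called transporters, 3 of the enzymes and 2 of the lipid genes, and 1, 4 and 5 were split by region. The median of the brush border list was -2.63 in SI and -0.30 in LI, where the medians over all genes tested were -0.0489 and -0.0523.

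Lct stood at 863, 672 and 358 CPM in SI tissue and at 9.80, 10.3 and 10.9 CPM in SI monolayers. The SI tissue libraries lay above all other libraries, and the interaction was -6.40 (SE 1.31, adjusted p = 0.00385). Cd36, which takes up fatty acids, stood at 55.4, 37.7 and 30.1 CPM in SI tissue and at no more than 1.05 CPM in any other library (interaction -6.46, SE 0.95, adjusted p = 4.70e-04). Slc6a19, the carrier of neutral amino acids, fell from 556, 504 and 342 CPM to 31.4, 33.2 and 33.2 CPM in SI and stayed between 1.09 and 4.47 CPM in the LI libraries. Apoa4, a protein of chylomicrons, fell by 3.78 on the log2 scale in SI, and its levels in LI were 8.52, 2.39 and 0.196 CPM in tissue and 4.13, 8.54 and 5.50 CPM in monolayers. Slc28a1, a nucleoside carrier, stood at 235, 220.3 and 163 CPM in SI tissue and at 2.03, 1.62 and 1.57 CPM in SI monolayers. In LI tissue it was at 1.01, 0 and 0 CPM, and without LI tissue replicate 1 its interaction moved from -7.08 to -14.59.

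The promoter of Lct is shown because it holds GATA letters (AGATAA on either strand) that occur in 7.52% of the promoters of its class and in 6.43% of all promoters of the genes tested. The 250 bases before its start lie at chr1:128328319-128328568 (GRCm38, minus strand), with these letters in capitals.
Lct: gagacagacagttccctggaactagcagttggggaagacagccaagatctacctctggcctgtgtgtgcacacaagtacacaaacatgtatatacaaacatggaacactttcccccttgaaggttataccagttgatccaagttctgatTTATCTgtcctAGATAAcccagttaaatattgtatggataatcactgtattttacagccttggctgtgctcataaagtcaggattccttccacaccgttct

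Other carriers and enzymes of the same functions kept a split by region, with both SI groups above both LI groups and a loss in SI culture that LI did not share. Fabp1, a fatty acid binding protein, stood at 1516, 1117 and 844 CPM in SI tissue, 121, 119.6 and 117 CPM in SI monolayers, 9.55, 2.78 and 0.339 CPM in LI tissue and 3.88, 9.19 and 7.68 CPM in LI monolayers. Its lowest SI library was above its highest LI library. Slc2a2, a glucose carrier, and Mme, a peptidase, had interactions of -3.25 (SE 0.73) and -3.58 (SE 0.82). The exceptions among called members were Slc3a1 and Slc34a2 of the transporters, Mgam of the enzymes and Scarb1 of lipid absorption, which were called higher. The promoter of Fabp1 carries the letters TTTATNG of CDX, an intestinal homeobox factor, at 3 places, where N is any base. These letters occur in 11% of the promoters of genes split by region and in 6.88% of all. It lies at chr6:71199629-71199878 (GRCm38, plus strand), with the CDX letters and those of TGACNNNGC, searched as the antioxidant response element, in capitals.
Fabp1: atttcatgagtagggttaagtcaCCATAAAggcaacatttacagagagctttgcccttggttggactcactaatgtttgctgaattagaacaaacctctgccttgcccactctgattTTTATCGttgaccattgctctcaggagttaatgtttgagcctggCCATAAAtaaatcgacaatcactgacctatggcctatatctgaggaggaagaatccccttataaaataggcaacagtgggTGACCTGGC

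**Figure D4:**
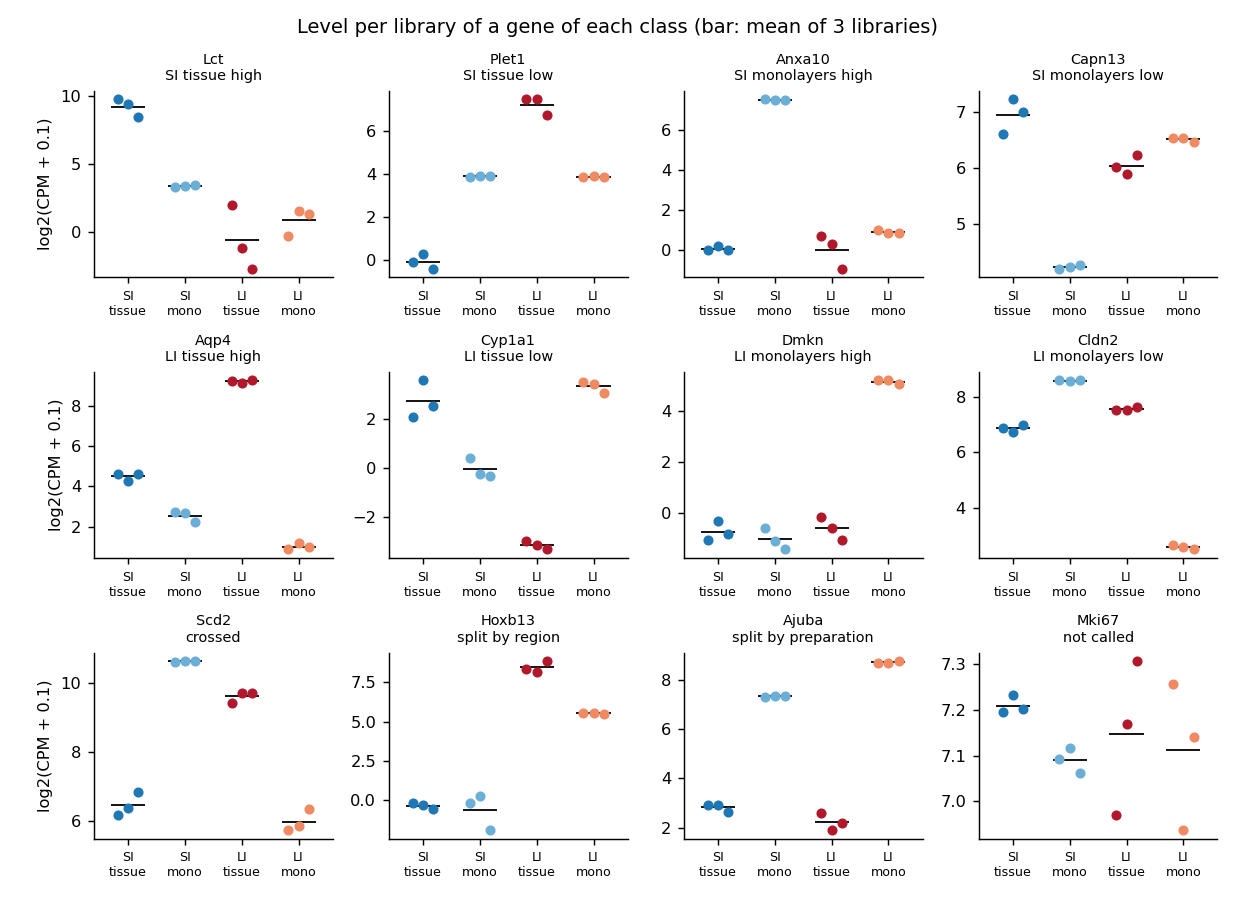
Level of 12 genes in each library as log2(CPM + 0.1), with a panel for a gene of each class and for Mki67, which was not called; points are libraries, bars are means of 3 libraries, and the vertical scale differs between panels. In the first 8 panels 1 group lies beyond the largest gap, for example SI tissue for Lct and LI monolayers for Cldn2, while Mki67 spans less than 1 unit. For Plet1 SI tissue is that group, and LI tissue also lies apart, on the high side.

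Slc46a1, the proton-coupled folate carrier that the study followed in its work on methotrexate, fell in SI from 67.4, 39.9 and 42.9 to 10.005, 10.9 and 11.3 CPM. In LI it was at 19.5, 12.9 and 21.4 CPM in tissue and at 26.7, 29.0 and 28.7 CPM in monolayers. The interaction was -2.87 (SE 0.32, adjusted p = 5.72e-05), and the order of the regions differed between tissue and monolayers. Slc19a1, the reduced folate carrier, was not called (interaction -0.79, SE 0.15, adjusted p = 3.56e-04), with a value short of the fold threshold.

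SI tissue also stood high for genes of other cells of the crypt and villus. Olfm4, a marker of SI stem cells, stood at 1271, 1063 and 1421 CPM in SI tissue, 20.1, 17.8 and 17.4 CPM in SI monolayers, 6.46, 0.159 and 0.0783 CPM in LI tissue and 0.0580, 4.06 and 2.62 CPM in LI monolayers. The SI tissue libraries lay far above the rest, and the interaction was -6.07 (SE 1.68, adjusted p = 0.0169). It was -10.28 without LI tissue replicate 1, and it was not called without LI monolayers replicate 2 (-5.23) or replicate 3 (-5.80). Of 12 tuft cell genes, 12 fell in SI and 11 fell in LI. The interaction was called lower for 4 (Dclk1, Ptgs1, Gfi1b and Sh2d6), against 8.51% of all genes. Without LI monolayers replicate 3, 2 were called. Sh2d6 fell from 88.4, 91.1 and 66.6 to 1.84, 2.38 and 2.28 CPM in SI and from 7.33, 10.2 and 4.96 to 0.870, 1.16 and 0.927 CPM in LI. Pla2g4c, a phospholipase, fell in SI from 1155, 2096 and 1684 to 0.204, 0.299 and 0.139 CPM and in LI from 34.8, 41.2 and 23.3 to 0.130, 3.47 and 5.61 CPM. The 4 gasdermin C genes listed with it fell in both regions and were not called for the interaction. Mbl2, a mannose-binding lectin, stood at 13.1, 17.5 and 15.6 CPM in SI tissue and at 0.583, 0.109 and 0.0557 CPM in SI monolayers. No count of it was seen in LI tissue and at most 0.0883 CPM in LI monolayers, so its fitted interaction depends on the prior count and is not given. Such a group, with all 3 libraries at 0, was found for 142 of the called genes.

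Of 15 circadian clock genes, 4 were called, 3 lower and 1 higher, a share not far from the 20.0% of all genes tested. The 3 called lower are output genes of the clock and stood high in SI tissue. Dbp was at 24.0, 14.8 and 12.1 CPM in SI tissue, 0.992, 1.06 and 1.505 CPM in SI monolayers, 2.58, 2.39 and 2.65 CPM in LI tissue and 0.623, 0.922 and 0.912 CPM in LI monolayers. It fell in both regions, by more in SI. Tef and Hlf, which encode related factors, were called lower as well, while Bhlhe40, a repressor in the clock, was called higher. The other 11 of the 15 clock genes were not called, and the hour at which tissue was taken is not given in the sources used here.

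All 13 transcripts encoded by the mitochondrial genome were called lower, with a median culture difference of -3.72 in SI and -1.91 in LI. Of 16 nuclear genes of the respiratory chain, 1 was called, and 0 without SI tissue replicate 2 or LI tissue replicate 2 or 3. mt-Nd4, a subunit of complex I, stood at 4709.8, 2794 and 2069 CPM in SI tissue, 257, 255 and 214 CPM in SI monolayers, 727, 755 and 710.3 CPM in LI tissue and 331, 344 and 309.5 CPM in LI monolayers. The SI tissue libraries were highest and also spread most. Mitochondrial transcripts took 4.56% to 9.16% of the counts of SI tissue libraries, 2.25% to 2.59% in LI tissue, 0.472% to 0.559% in SI monolayers and 0.704% to 0.750% in LI monolayers. The part of RNA quality in this difference was not tested. Ppargc1a, a coactivator that drives mitochondrial genes, fell in SI from 52.8, 60.4 and 42.0 to 6.13, 6.87 and 6.10 CPM and in LI from 20.1, 21.7 and 24.0 to 9.35, 9.78 and 7.74 CPM, an interaction of -1.73 (SE 0.18, adjusted p = 2.34e-06).

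SI tissue stood low in 235 genes, which SI monolayers brought up toward the LI level. Sptssb, a subunit of the enzyme that starts sphingolipid synthesis, stood at 0.805, 0.925 and 1.35 CPM in SI tissue, 22.3, 21.2 and 19.2 CPM in SI monolayers, 146, 230.0 and 92.8 CPM in LI tissue and 11.7, 10.2 and 9.76 CPM in LI monolayers. It rose in SI and fell in LI, so that the monolayers of both regions were nearer to each other than the tissues (interaction 8.22, SE 0.50, adjusted p = 1.66e-06). Plet1, a surface protein of progenitor cells, moved the same way: 0.840, 1.13 and 0.659 CPM in SI tissue, 179, 179 and 108 CPM in LI tissue, 14.7, 14.8 and 15.0 CPM in SI monolayers and 14.5, 15.1 and 14.6 CPM in LI monolayers. Stc2, a secreted glycoprotein, rose by 5.94 on the log2 scale in SI and fell by 1.23 in LI. Abca12, a lipid carrier of stratified epithelia, was called in opposite directions as well (5.84 in SI and -1.13 in LI).

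Genes of glycolysis and of the response to low oxygen were called in 9 of 15 cases, against 20.0% of all genes. Each of the 9 had a higher response in SI. The median of the 15 was 1.25 in SI and -0.0957 in LI. Hk1, the hexokinase that traps glucose, rose in SI from 24.9, 27.6 and 25.5 to 87.6, 85.6 and 88.1 CPM and was at 269, 263 and 271 CPM in LI tissue and 242, 245 and 254 CPM in LI monolayers. Its SI tissue libraries were the lowest of all. In 5 of the 9 (Slc2a1, Hk1, Hk2, Aldoa and Adm) the deviating group was SI tissue, low. Bnip3, a mitophagy receptor induced by low oxygen, rose in SI to 29.3, 26.3 and 25.2 CPM from 9.80, 7.46 and 7.18 CPM and fell in LI to 2.87, 3.48 and 3.002 CPM from 9.69, 8.96 and 8.34 CPM. Pdk1, the kinase that closes pyruvate off from the mitochondria, fell in LI from 84.1, 78.4 and 83.4 to 12.2, 11.2 and 10.5 CPM, with 70.9, 74.1 and 71.3 CPM in SI tissue and 88.7, 92.9 and 87.9 CPM in SI monolayers (interaction 3.18, SE 0.0827, adjusted p = 2.87e-13).

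Among 15 genes of fetal-like repair, a state that injured epithelium enters, 12 rose in SI and 15 rose in LI. The interaction was called for 8, 4 higher and 4 lower, against 20.0% of all genes. Ly6a, the marker known as Sca-1, rose in SI from 17.3, 20.9 and 11.8 to 341, 333 and 361 CPM and in LI from 775, 768 and 772 to 2091, 2097 and 2076 CPM. It was highest in LI monolayers, and SI tissue was the group apart (interaction 2.94, SE 0.22, adjusted p = 1.48e-06). Basp1, a membrane-bound signalling protein, fell in SI and rose in LI, with values of -2.25 and 1.59.

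SI monolayers stood high in 142 genes. Anxa10, an annexin of gastric epithelium, rose in SI from 0.875, 1.02 and 0.879 to 185, 184 and 179 CPM and was at most 1.86 CPM in the LI libraries (interaction 6.85, SE 0.45, adjusted p = 1.35e-06). Nos2, the inducible nitric oxide synthase, rose in SI from 7.98, 19.2 and 13.1 to 127, 132 and 138 CPM and fell in LI from 44.0, 37.4 and 26.9 to 14.4, 13.9 and 13.7 CPM. Cybrd1, the brush border reductase that readies iron for uptake, stood at 50.1, 50.9 and 54.0 CPM in SI monolayers and at no more than 3.22 CPM in any other library. Of 12 genes of iron and zinc handling, 7 were called, 6 of them higher, against 20.0% and 11.4% of all genes. SI monolayers stood high in 4, Cybrd1, the ferritin light chain Ftl1 and the metallothioneins Mt1 and Mt2. Gstm3, a glutathione transferase, was at 205, 196 and 109 CPM in SI tissue, 957, 957 and 977 CPM in SI monolayers, 40.6, 40.7 and 50.4 CPM in LI tissue and 6.32, 9.15 and 8.62 CPM in LI monolayers. It rose in SI and fell in LI, but it has close paralogs among which the counting may have divided reads, and the same holds for Gstm1.

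The promoter of Anxa10 is shown for its AP-1 letters, TGANTCA with N for any base, which stand in capitals. AP-1 is the Fos and Jun dimer, and its letters were found in 9 of 89 promoters (10.1%) of genes with SI monolayers high. The share was highest in crossed genes (18 of 171, 10.5%) and was 5.09% of all 12623. It was 8.42% and 9.21% with LI monolayers high or low and 6.67% with SI monolayers low. It was 4.14% and 7.24% with SI tissue high or low, and 6.44% and 6.05% with LI tissue high or low. For genes split by preparation it was 8.06%, and for those split by region 7.74%. The window lies at chr8:62123194-62123443 (GRCm38, minus strand).
Anxa10: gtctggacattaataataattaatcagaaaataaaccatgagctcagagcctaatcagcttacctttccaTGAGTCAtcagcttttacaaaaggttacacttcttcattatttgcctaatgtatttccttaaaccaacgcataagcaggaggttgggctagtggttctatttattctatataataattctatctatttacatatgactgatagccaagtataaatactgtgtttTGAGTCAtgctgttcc
The other motifs searched in the 250 bases before the start, on both strands, were CRE (TGACGTCA), HNF4 (CAAAGTCCA), E-box (CACGTG) and TEAD (GGAATG). For these, the class with the highest share is given. CRE letters were in 4 of 89 promoters (4.49%) with SI monolayers high and in 2.61% of all. HNF4 letters were in 10 of 532 (1.88%) with LI monolayers low and in 0.412% of all. TEAD letters were in 38 of 266 (14.3%) with SI tissue high and in 10.9% of all. GATA letters were in 12.3% of promoters split by region, 10.9% with LI monolayers low and 3.37% with SI monolayers high. E-box letters were in 15 of 155 (9.68%) split by region, in 7.23% over all called genes and in 7.91% of all. Antioxidant response letters, which can share bases with AP-1 letters, were in 11.6% over all called genes and in 11.9% of all. The RefSeq promoter table (GRCm38.p6) held 12623 of the 19581 genes tested, and these shares were not tested.

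Slc7a11, the cystine carrier and a target of Nrf2, rose in SI from 1.40, 2.10 and 1.52 to 55.9, 52.3 and 48.9 CPM and in LI from 3.58, 2.12 and 2.17 to 9.62, 9.92 and 9.68 CPM. Of 13 Nrf2 targets, 5 were called, 4 higher and 1 lower, against 20.0% of all genes. Btc, a ligand of the EGF receptor, rose more in SI (3.57, 3.69 and 5.33 to 85.5, 85.5 and 82.8 CPM) than in LI (6.59, 6.402 and 6.61 to 21.9, 19.3 and 17.7 CPM), with an interaction of 2.74 (SE 0.17, adjusted p = 9.13e-09). Of 18 genes of EGF receptor signalling, 10 were called, 5 in each direction, against 20.0% of all genes. Areg, another ligand, rose in both regions (6.09 in SI and 3.59 in LI), and Etv5, a transcription factor induced by the pathway, rose in SI and fell in LI (2.04 and -1.31). The receptor itself, Egfr, rose in both regions, from 18.8, 18.03 and 19.2 to 71.4, 71.1 and 70.8 CPM in SI and from 33.3, 28.2 and 27.9 to 196, 194 and 196 CPM in LI, and its interaction of -0.78 (SE 0.0864, adjusted p = 2.09e-06) was short of the fold threshold. That of Erbb2, a partner receptor, was -0.35 (SE 0.0816, adjusted p = 0.00228).

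The median response of cholesterol and fatty acid synthesis differed in sign between the regions. Of 17 genes, 15 were called, each higher; 11.4% of all genes tested were called higher. In SI 11 of the 17 rose, and in LI 7 fell, with medians of 1.11 and -0.87. Scd2, a desaturase of fatty acids, rose in SI from 72.3, 82.7 and 113 to 1570.4, 1601 and 1603 CPM and fell in LI from 693, 846 and 839 to 52.9, 58.0 and 81.0 CPM. SI monolayers and LI tissue were the high groups, and no library of them overlapped the other groups (interaction 7.78, SE 0.31, adjusted p = 3.91e-08). Fdps, which makes farnesyl diphosphate, rose in SI by 1.54 and fell in LI by 1.93 on the log2 scale. Dhcr7, a late enzyme of the pathway, stood at 64.9, 57.2 and 70.9 CPM in SI tissue, 69.3, 73.7 and 77.9 CPM in SI monolayers, 112, 118 and 100.4 CPM in LI tissue and 12.7, 13.9 and 14.4 CPM in LI monolayers, and there the loss in LI was the difference. Hmgcs1, Fdft1 and Acaca were also crossed, and Sqle, Idi1, Lss, Cyp51 and Insig1 had SI monolayers high. Guca2a, the hormone guanylin, was crossed as well, with 175, 196 and 256 CPM in SI tissue, 590.1, 559.5 and 586 CPM in SI monolayers, 733, 877 and 701 CPM in LI tissue and 154, 155 and 154 CPM in LI monolayers.

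**Figure D5:**
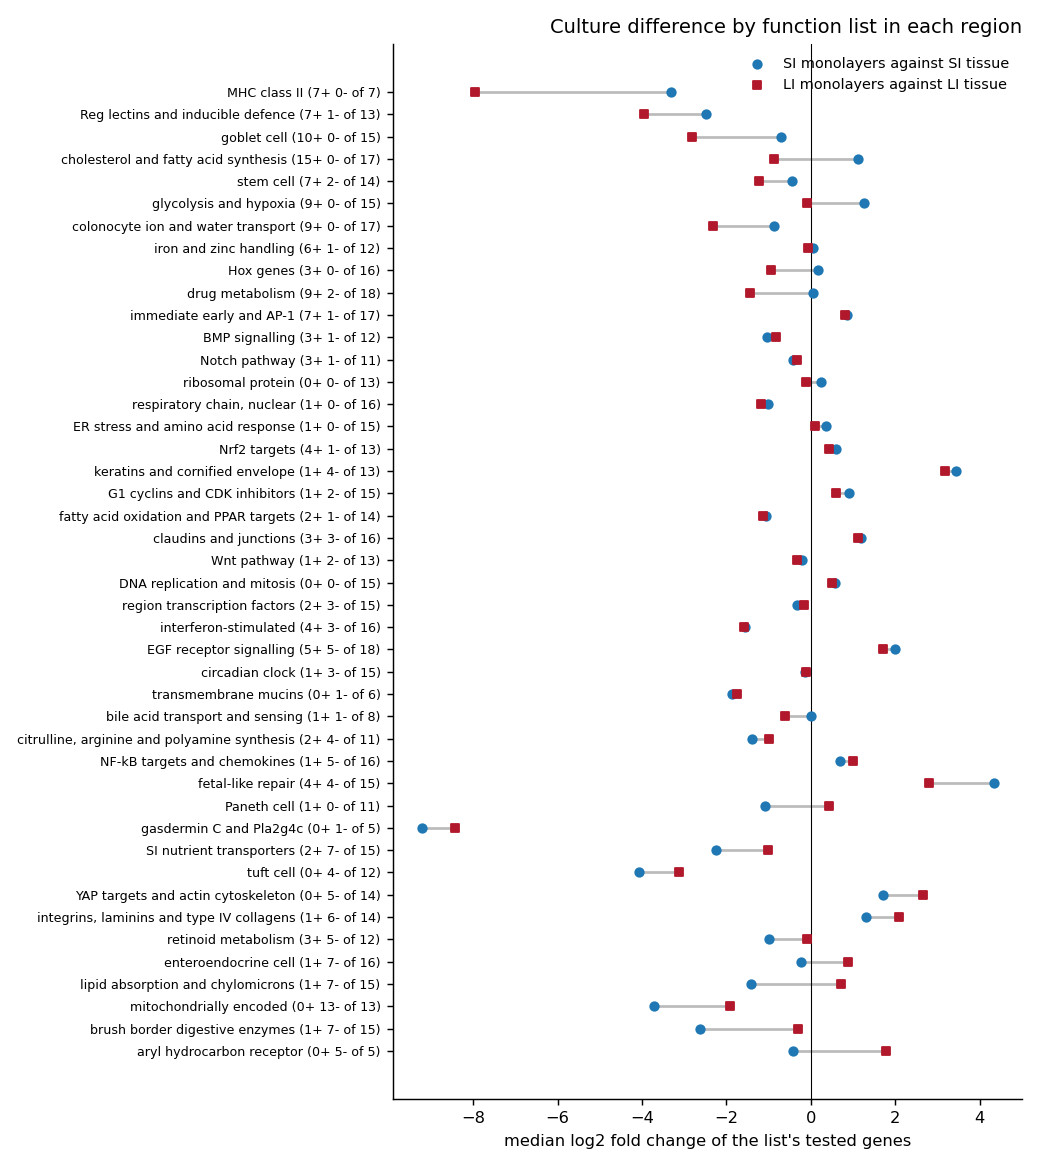
Median log2 fold change of monolayers against tissue in SI (circles) and in LI (squares) for the tested genes of 44 function lists, ordered by the median interaction, with the number called higher (+) and lower (-) of those tested beside each name. Cholesterol and fatty acid synthesis lies on opposite sides of 0 in the 2 regions, MHC class II lies lower in LI, and the mitochondrially encoded and brush border lists lie lower in SI.

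SI monolayers stood low in 155 genes. Capn13, a calpain protease, fell in SI from 97.5, 149 and 128 to 18.2, 18.6 and 19.1 CPM and was at 64.4, 58.9 and 74.5 CPM in LI tissue and 92.5, 91.8 and 88.1 CPM in LI monolayers (interaction -3.20, SE 0.19, adjusted p = 1.25e-07). Rdx, radixin, which ties actin to the membrane, fell in SI from 7.42, 6.17 and 3.92 to 0.904, 1.11 and 1.24 CPM and stood at 22.7, 22.2 and 22.5 CPM in LI monolayers. Muc3, a mucin of the brush border, fell in both regions, to 31.3, 33.3 and 26.8 CPM in SI and 178, 119 and 128 CPM in LI. Of 16 interferon-stimulated genes, 13 fell in SI and 15 in LI. The interaction was called for 7, 4 higher and 3 lower, against 20.0% of all genes. Oas2, a sensor of double-stranded RNA, fell to 0.292, 0.272 and 0.334 CPM in SI and 7.58, 5.93 and 3.34 CPM in LI, and Ifit2 fell in LI from 54.6, 53.0 and 34.4 to 2.35, 1.998 and 1.60 CPM. Ighg2b, an immunoglobulin constant region with near-identical neighbours, had 10.8, 13.9 and 9.80 CPM in SI tissue, and SI monolayers held 0.0292, 0 and 0 CPM, beside 2.46, 4.67 and 1.84 CPM in LI tissue and 1.26, 0.905 and 0.618 CPM in LI monolayers. The lymphocyte marker sum was also higher in tissue than in monolayers of each region, and its part was not tested.

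LI tissue stood high in 702 genes, among them Cela1. Sult1a1, a phenol sulfotransferase, was at 283, 265 and 288 CPM in LI tissue and at no more than 0.980 CPM in any other library (interaction 10.31, SE 1.09, adjusted p = 6.67e-05). Best2, an anion channel of colonic goblet cells, stood at 29.7, 30.1 and 47.1 CPM in LI tissue and at no more than 0.175 CPM elsewhere. Trpv6, the calcium channel of the apical membrane, stood at 66.6, 37.6 and 53.8 CPM in LI tissue and at no more than 0.350 CPM elsewhere. Casp14, a caspase of cornifying cells, was at 11.6, 8.89 and 16.5 CPM in LI tissue. In each of the 4, the loss was in LI culture and the SI level was low throughout, although Casp14 was also called for a rise in SI.

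Of 17 colonocyte genes of ion and water transport, 9 were called, each higher, against 11.4% of all genes. Falls were called for 13 in LI and 6 in SI, beside 4610 and 3208 of the 19581 genes tested. Aqp4, a water channel, fell in LI from 621, 564 and 631 to 1.71, 2.15 and 1.84 CPM and in SI from 24.5, 19.5 and 24.1 to 6.42, 6.22 and 4.57 CPM. The interaction was 6.33 (SE 0.20, adjusted p = 2.87e-10). Car1 fell in LI from 755, 3122 and 709 to 39.4, 39.5 and 46.6 CPM, and 1 LI tissue library was above the other 2. Slc40a1, ferroportin, which exports iron, fell in LI from 222, 210.0 and 219 to 8.86, 9.597 and 10.7 CPM, with 11.2, 10.3 and 14.5 CPM in SI tissue and 12.7, 11.5 and 9.08 CPM in SI monolayers. Cldn8, a claudin that seals the distal gut, fell in LI from 163, 114 and 187 to 12.5, 12.1 and 9.68 CPM and rose in SI from 0.770, 0.987 and 1.82 to 2.65, 2.72 and 2.87 CPM. Nr1h4, the bile acid receptor FXR, fell in LI from 111, 124 and 107 to 37.5, 31.0 and 33.1 CPM (interaction 2.11, SE 0.12, adjusted p = 2.73e-09). Its target Fgf15 rose in both regions, to 44.9, 45.7 and 47.4 CPM in SI and 29.3, 28.7 and 26.9 CPM in LI from at most 2.53 CPM in tissue. On the log2 scale Fgf15 gained less in SI, and it was called lower (interaction -2.74). These were the 2 called of 8 genes of bile acid transport and sensing, beside 20.0% of all genes.

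Goblet cell genes were called in 10 of 15 cases, each higher, against 11.4% of all genes. Of the 15, 14 fell in LI and 6 in SI, beside 4610 and 3208 of the 19581 genes tested. Zg16, a lectin of the mucus that binds bacteria, fell in LI from 2707, 2871 and 3438 to 163, 185 and 189 CPM and was at 433, 473 and 715 CPM in SI tissue and 327, 328 and 329 CPM in SI monolayers. Agr2, which folds mucins, fell in LI from 1248, 1454 and 1374 to 76.005, 76.1 and 76.3 CPM, and in SI it was at 298, 338 and 477 CPM in tissue and 227, 216 and 229 CPM in monolayers. For both genes the order of the regions was reversed in monolayers. Fcgbp, a partner of mucin in the gel, stood at 2264, 2806 and 2995 CPM in SI tissue, 1971, 1967 and 1925 CPM in SI monolayers, 5120.3, 6379 and 5339.6 CPM in LI tissue and 257, 262 and 293 CPM in LI monolayers. Muc2 itself, the gel-forming mucin, fell in both regions and was not called (interaction 0.77, SE 0.25, adjusted p = 0.0286). Of 13 Reg lectins and inducible defence genes, 8 were called, 7 higher and 1 lower, against 20.0% of all genes. Saa1, an acute phase protein of epithelium in contact with bacteria, fell in LI from 1609, 1175 and 1776 to 15.0, 14.1 and 14.7 CPM and was at most 10.6 CPM in SI. Reg3g, a bactericidal lectin, fell in SI from 1559, 1778 and 1404 to 255, 248 and 257 CPM and in LI from 251, 628 and 213 to 2.72, 7.55 and 6.71 CPM.

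Immediate early genes were called in 8 of 17 cases, 7 of them higher, against 20.0% and 11.4% of all genes. Fos, a partner in the AP-1 dimer, fell in LI from 174, 181 and 186 to 42.1, 39.9 and 41.6 CPM, with 40.8, 46.9 and 34.8 CPM in SI tissue and 39.96, 42.0 and 42.4 CPM in SI monolayers. LI tissue stood apart for Fos, and for Fosb, Jun, Ier2 and Klf4 the class was the same. Egr1, another early gene, had SI tissue low, with 3.88, 10.9 and 8.33 CPM there, 81.5, 81.6 and 84.8 CPM in SI monolayers, 27.1, 38.1 and 36.3 CPM in LI tissue and 55.6, 59.3 and 55.6 CPM in LI monolayers.

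Genes that pattern the gut were called in part. Of 16 Hox genes, 3 were called, each higher, where 20.0% of all genes tested were called; 6 were called without SI monolayers replicate 3. Of 15 transcription factors of region, 5 were called, 2 higher and 3 lower. Hoxb13, the most posterior of its cluster, fell in LI from 325, 279.9 and 462 to 46.8, 47.6 and 45.0 CPM and was at most 1.09 CPM in SI. The LI monolayers stayed above every SI library (interaction 2.94, SE 0.63, adjusted p = 0.00481). Cdx1, a homeobox factor of the intestine, fell in LI from 541, 517 and 658 to 107, 111 and 108 CPM and stood at 276, 249.97 and 287 CPM in SI tissue and 164, 185 and 186 CPM in SI monolayers. Isx, a regulator of vitamin A uptake, rose in LI from 22.5, 30.4 and 18.2 to 81.8, 82.3 and 85.7 CPM and was at 98.5, 95.0 and 97.5 CPM in SI monolayers.

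LI tissue stood low in 304 genes, a count that was 202 without SI monolayers replicate 1. Cyp1a1 and Ahr of the aryl hydrocarbon receptor pathway were among them. This receptor is activated by plant, bacterial and synthetic ligands and induces the enzymes that clear them. All 5 tested genes of the pathway were called lower, 2 with LI tissue low, 2 with LI monolayers high and 1 with SI tissue high. Cyp1a1, its classic target, stood at 4.13, 12.1 and 5.68 CPM in SI tissue, 1.23, 0.760 and 0.697 CPM in SI monolayers, 0.0269, 0.0133 and 0 CPM in LI tissue and 11.5, 10.8 and 8.33 CPM in LI monolayers. It fell in SI and rose in LI, and the LI tissue values are under the limit of 3 counts, so the fitted interaction of -12.44 (SE 0.82, adjusted p = 4.09e-07) rests on levels near 0 there. Tiparp, a target that represses the receptor, had LI monolayers high and rose in LI from 14.8, 16.3 and 14.8 to 49.3, 55.1 and 53.9 CPM and was at 24.7, 23.4 and 24.4 CPM in SI tissue and 22.6, 24.0 and 22.2 CPM in SI monolayers. Ahr, the receptor, rose in LI from 9.11, 8.99 and 8.31 to 26.1, 25.7 and 27.0 CPM. Its interaction of -1.07 was close to the fold threshold and was between -1.11 and -0.94 when 1 library was left out, not called without any 1 of the 6 monolayer libraries.

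Further genes with LI tissue low were of unlike function. Cubn, the receptor for vitamin B12 with its intrinsic factor, fell in SI from 45.9, 25.5 and 15.3 to 8.47, 8.32 and 7.94 CPM and rose in LI from 0.686, 0.649 and 0.144 to 16.2, 13.1 and 13.98 CPM. Sphk1, a sphingosine kinase, did the same, with values of -1.05 in SI and 4.79 in LI. Depdc7 rose in LI from 0.323, 0.424 and 0.130 to 14.6, 13.9 and 12.5 CPM and was at 24.6, 22.8 and 21.7 CPM in SI tissue. Notch2, a receptor that keeps crypt cells undifferentiated, rose in LI from 4.95, 3.75 and 5.43 to 39.5, 41.4 and 43.2 CPM, with 12.4, 10.7 and 10.4 CPM in SI tissue and 20.6, 19.6 and 20.6 CPM in SI monolayers (interaction -2.27, SE 0.15, adjusted p = 8.37e-09).

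Enteroendocrine genes were called in 8 of 16 cases, 7 of them lower, against 20.0% and 8.51% of all genes. Rises were called for 7 in LI and 2 in SI, beside 2832 and 1902 of the 19581 genes tested. Cck, cholecystokinin, rose in LI from 3.89, 2.31 and 1.90 to 44.5, 45.7 and 39.2 CPM and in SI from 69.2, 42.9 and 39.1 to 129, 133 and 143 CPM. Nts, neurotensin, rose in LI from 5.09, 10.4 and 2.32 to 26.5, 27.8 and 26.4 CPM and fell in SI from 45.5, 54.1 and 35.1 to 20.4, 18.01 and 18.9 CPM. Chga, chromogranin A, a general marker of these cells, rose in LI from 41.3, 41.5 and 34.0 to 203, 193 and 182 CPM and was at 117, 85.2 and 68.1 CPM in SI tissue and 78.5, 79.8 and 86.4 CPM in SI monolayers (interaction -2.45, SE 0.24, adjusted p = 2.26e-05). Neurog3, the factor that starts the lineage, was the 1 called higher.

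LI monolayers stood high in 384 genes. Upk3bl, a uroplakin-like membrane protein, stood at 18.5, 16.7 and 14.9 CPM in LI monolayers and at most 0.312 CPM elsewhere. Dmkn, dermokine, a secreted protein of the epidermis, stood at 36.1, 35.8 and 32.5 CPM in LI monolayers and at most 0.807 CPM elsewhere (interaction -6.23, SE 0.41, adjusted p = 2.85e-08). Il18r1, a receptor chain for interleukin 18, rose in LI from 1.45, 0.384 and 0.522 to 24.8, 24.7 and 21.7 CPM and fell in SI from 2.03, 2.96 and 3.21 to 0.773, 1.11 and 1.37 CPM. Aldh1a3, an enzyme that makes retinoic acid, rose in LI from 4.19, 1.60 and 2.74 to 871, 848 and 782 CPM and in SI from 6.94, 6.05 and 3.40 to 40.5, 38.3 and 39.7 CPM. Its relative Aldh1a1 went the other way, with 374, 353 and 344 CPM in SI monolayers, 16.97, 17.3 and 17.3 CPM in LI monolayers, 218, 93.2 and 66.3 CPM in SI tissue and 59.9, 136 and 66.6 CPM in LI tissue. Of 12 retinoid genes, 8 were called, 3 higher and 5 lower, against 20.0% of all genes.

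Genes of adhesion and of the cytoskeleton rose in both regions, more of them in LI than in SI. More rises in LI were also seen over all 19581 genes tested, 2832 against 1902 in SI. Of 14 integrins, laminins and type IV collagens, 13 rose in LI and 8 in SI, and 7 were called, 6 of them lower. Itgav, an integrin that binds vitronectin, rose in SI from 13.8, 14.6 and 13.0 to 30.5, 33.4 and 31.3 CPM and in LI from 16.5, 14.9 and 14.6 to 147, 153 and 151 CPM (interaction -2.09, SE 0.0887, adjusted p = 6.10e-11). Lama3, a laminin chain of the basement membrane under epithelia, rose in LI from 20.9, 11.9 and 12.4 to 124, 134 and 142 CPM and was at 9.57, 7.73 and 12.3 CPM in SI tissue and 10.2, 10.2 and 9.04 CPM in SI monolayers. Of 14 YAP targets and actin genes, 13 rose in LI and 10 in SI, and 5 were called, each lower; among all genes, 8.51% were. Ajuba, a scaffold at junctions, rose in SI from 7.50, 7.53 and 6.12 to 159.6, 164 and 164 CPM and in LI from 6.03, 3.63 and 4.42 to 410.3, 417 and 436 CPM. Lats2, the kinase that restrains YAP, rose in LI from 1.95, 2.92 and 1.88 to 13.8, 15.9 and 15.3 CPM and was at 4.33, 4.62 and 4.32 CPM in SI monolayers. Tjp1, the junction protein ZO-1 that the study stained, rose in both regions, to 305, 300.1 and 309 CPM in SI and 633, 631 and 645 CPM in LI (interaction -1.15, SE 0.0762, adjusted p = 7.52e-09). Krt80, a keratin, rose to 16.7, 17.5 and 18.4 CPM in SI and 82.1, 82.5 and 89.7 CPM in LI from at most 1.67 CPM in tissue. Vim, the filament protein of mesenchymal cells, rose in LI from 16.6, 15.2 and 12.4 to 34.4, 34.7 and 31.1 CPM. The fibroblast marker list, of which it is a part, summed to 91.7 to 126 CPM in LI monolayers, 68.2 to 89.2 CPM in LI tissue, 28.7 to 45.4 CPM in SI monolayers and 58.4 to 83.3 CPM in SI tissue. Of its 12 markers, 3 rose and 2 fell in LI, 0 rose and 4 fell in SI, and 4 were called, each lower. The part of mesenchymal cells was not tested.

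Of 16 NF-kB targets and chemokines, 6 were called, 5 of them lower, against 20.0% and 8.51% of all genes. Cxcl5, a chemokine that draws neutrophils, stood at 45.1, 44.3 and 42.5 CPM in LI monolayers and at most 1.19 CPM elsewhere. Cxcl16, made by epithelium for T cells, rose in both regions, to 155, 159.6 and 165 CPM in SI and 319, 313 and 319 CPM in LI. Ccl28, which draws antibody-forming cells to mucosa, fell in LI from 184, 164 and 222 to 16.8, 14.9 and 13.6 CPM and in SI from 46.4, 43.6 and 62.7 to 12.6, 13.4 and 13.0 CPM, and was the 1 called higher.

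LI monolayers stood low in 746 genes. Cldn2, a claudin that forms a pore for cations and water, stood at 116, 106 and 127 CPM in SI tissue, 387, 378 and 384 CPM in SI monolayers, 182, 184 and 197 CPM in LI tissue and 6.15, 5.84 and 5.50 CPM in LI monolayers. It rose in SI and fell in LI, with no overlap of any groups (interaction 6.72, SE 0.0976, adjusted p = 3.16e-16). Pla2g5, a secreted phospholipase, fell in LI from 75.7, 65.7 and 81.4 to 0.174, 0.0683 and 0.0883 CPM and in SI from 24.1, 21.9 and 22.01 to 3.76, 4.37 and 3.58 CPM. Cldn15, which forms a sodium pore, fell in LI from 154, 168 and 135 to 14.2, 15.5 and 16.3 CPM and in SI from 578, 598 and 524 to 249, 249 and 264 CPM. Of 16 claudin and junction genes tested, 6 were called, 3 higher (Cldn2, Cldn8 and Cldn15) and 3 lower, against 20.0% of all genes.

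Most called stem cell genes were of this class. Of 14, 9 were called, 7 higher and 2 lower, against 20.0% of all genes. Falls were called for 8 in LI and 2 in SI, beside 4610 and 3208 of the 19581 genes tested. Ascl2, the factor that sets stem cell identity downstream of Wnt, stood at 10.9, 8.58 and 11.0 CPM in SI tissue, 6.402, 5.91 and 5.74 CPM in SI monolayers, 8.28, 7.77 and 9.05 CPM in LI tissue and 0, 0.205 and 0.147 CPM in LI monolayers (interaction 5.43, SE 0.45, adjusted p = 5.06e-07). Smoc2, a secreted protein of stem cells, fell in LI from 39.3, 36.2 and 45.8 to 1.58, 1.88 and 2.41 CPM and was at 54.3, 57.8 and 52.5 CPM in SI monolayers. Axin2, the feedback inhibitor that Wnt induces, fell in LI from 32.0, 33.1 and 28.9 to 1.28, 2.25 and 1.81 CPM and in SI from 63.9, 58.8 and 70.5 to 28.2, 29.5 and 27.7 CPM. Lgr5, the R-spondin receptor, and Tnfrsf19, another stem cell receptor, were in the same class, with interactions of 3.58 and 3.19. Lrig1, a brake on EGF receptors, fell in LI from 149, 139 and 150.1 to 45.7, 45.5 and 45.9 CPM and stood at 91.0, 98.4 and 102 CPM in SI tissue and 90.2, 98.3 and 98.0 CPM in SI monolayers. In the Wnt list as a whole, 3 of 13 were called, 1 higher (Axin2) and 2 lower, a share near the 20.0% of all genes tested; 1 was called without LI monolayers replicate 1 and 2 with upper quartile scaling. Id3, a target of BMP, fell in LI from 102, 141 and 116 to 4.46, 4.08 and 3.71 CPM and in SI from 95.8, 109.7 and 109.7 to 38.0, 36.7 and 37.0 CPM, and Id1 was also called higher. In the BMP list as a whole, 4 of 12 were called, 3 higher and 1 lower. The medians of that list were -1.04 in SI and -0.83 in LI. Dll1, a Notch ligand of secretory progenitors, fell in LI from 12.2, 11.1 and 13.0 to 2.75, 2.94 and 3.09 CPM and was at 25.6, 23.6 and 25.4 CPM in SI monolayers.

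All 7 MHC class II genes fell in both regions, by a median of 3.32 in SI and 7.96 in LI on the log2 scale, and all 7 were called higher. Cd74, the invariant chain that guides class II molecules, stood at 403, 1256 and 496 CPM in SI tissue, 105, 102 and 108 CPM in SI monolayers, 1285, 1621 and 1195 CPM in LI tissue and 4.15, 5.21 and 6.64 CPM in LI monolayers (interaction 5.22, SE 0.61, adjusted p = 1.32e-04). Its SI tissue libraries spread more than those of the other groups. Cells of the immune system also carry these genes; the 12 myeloid markers summed to 32.0 to 34.9 CPM in SI tissue, 84.5 to 85.7 CPM in SI monolayers, 121 to 144 CPM in LI tissue and 195 to 208 CPM in LI monolayers. That sum was carried by Cd14 and Mrc1, while 7 of the 12 fell and 3 rose in SI and 8 fell and 2 rose in LI, with medians of -1.65 and -3.21, and 5 were called higher and 1 lower. The part of immune cells in the class II difference was not tested.

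Genes of drug metabolism were called in 11 of 18 cases, 9 higher and 2 lower, against 20.0% of all genes. LI monolayers stood low in 7 of the 11. Gstm1, a glutathione transferase, rose in SI from 84.5, 67.7 and 46.6 to 646, 658 and 688 CPM and fell in LI from 144, 126 and 164 to 11.7, 15.1 and 14.3 CPM (interaction 6.73, SE 0.31, adjusted p = 1.35e-07). Ces1g, a carboxylesterase, fell in LI from 9.30, 16.2 and 9.21 to 0.203, 0.171 and 0.265 CPM and was at 2.52, 2.66 and 2.69 CPM in SI monolayers. Ugt2b5, a glucuronosyltransferase, fell in LI from 7.85, 24.4 and 9.002 to 0.232, 0.239 and 0.147 CPM, and was at 11.9, 4.61 and 6.25 CPM in SI tissue and 14.5, 13.2 and 12.9 CPM in SI monolayers. Both have close paralogs, so reads may have been divided between them. Drug-metabolising P450 genes were also among those measured by the study. Cyp3a11 was not called and stood at 120.0, 101 and 67.0 CPM in SI tissue, 147, 138 and 135 CPM in SI monolayers, 1.10, 0.504 and 0.183 CPM in LI tissue and 0.899, 1.52 and 0.853 CPM in LI monolayers (interaction -0.31, SE 0.65, adjusted p = 0.736). Its sign turned without LI tissue replicate 3 (0.12) or LI monolayers replicate 2 (0.0929). Cyp3a13 had an interaction of 0.80 (SE 0.12, adjusted p = 5.53e-05), short of the fold threshold, and Cyp3a41a did not pass the filter on low counts. Nqo1, a quinone reductase induced by Nrf2, fell in LI from 44.2, 48.4 and 45.5 to 18.6, 20.4 and 22.7 CPM and was at 56.5, 55.3 and 61.5 CPM in SI monolayers.

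Other functions were called in shares near or under the 20.0% of all genes tested. Of 15 genes of DNA replication and mitosis, edgeR called 0 and DESeq2 called 0. In edgeR 9 were at an unadjusted p under 0.05, and 9 at an adjusted p under 0.05, each short of the fold threshold. Without LI tissue replicate 2, 1 was called. Mki67, the marker of cycling cells, stood at 146, 150.3 and 147 CPM in SI tissue, 136, 139 and 134 CPM in SI monolayers, 125, 144 and 158 CPM in LI tissue and 153, 122 and 141 CPM in LI monolayers. Its groups overlapped, and the interaction of -0.082 (SE 0.12, adjusted p = 0.601) was between -0.16 and 0.094 when 1 library was left out. Of 13 ribosomal protein genes, edgeR called 0 and DESeq2 called 0. In edgeR 12 were at an unadjusted p under 0.05, and 9 at an adjusted p under 0.05, each short of the fold threshold. Of 15 G1 cyclins and inhibitors, 3 were called, among them Myc, which rose to 158, 159.8 and 155 CPM in SI and 219, 228 and 224 CPM in LI, and Cdk6, which rose to 57.6, 60.6 and 56.5 CPM and 155, 147 and 156 CPM. Of 11 Paneth cell genes, 1 was called, Ang4; none of the 11 was called by edgeR without SI tissue replicate 2, LI tissue replicate 2 or LI monolayers replicate 1, where the adjusted p of Ang4 was 0.0510 to 0.0547, and 3 were called without LI tissue replicate 1. Lyz1, the lysozyme that defines the cell, was not called (interaction -0.93, SE 0.78, adjusted p = 0.375). Lyz1 stood at 1254, 2595 and 5392 CPM in the SI tissue libraries, a range that covers the 3084, 2991 and 3187 CPM of SI monolayers. It was -0.25 without SI tissue replicate 3 and -1.54 without LI tissue replicate 1. Of 15 genes of the endoplasmic reticulum stress and amino acid response 1 was called, Sdf2l1 (2 without LI tissue replicate 1), and of 14 genes of fatty acid oxidation 3.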

How the data were processed

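RNA was sequenced from 12 mouse libraries, 3 in each of 4 groups, which were assigned from the labels. The authors deposited whole-number counts per gene, not normalized, after alignment of paired-end reads to GRCm38 in STAR 2.7.9a and counting over GENCODE genes in featureCounts 2.0.2. Strand and mate settings are not given in the sources used here. A second deposited table, of counts scaled with DESeq2, was not used, and 0 columns of values were left unmapped. Of 55487 genes, 55141 had a name and 23186 had no count.

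Counts were filtered with filterByExpr by group, scaled by TMM and fitted with the robust quasi-likelihood model of edgeR 4.0.16 (R 4.3.3) in 1 model of 4 group means, which gave a median biological coefficient of variation of 0.127. P-values were adjusted over 19581 genes by the Benjamini-Hochberg method, and called genes had an adjusted p below 0.05 with a log2 difference of 1 or more in either direction. Deviating groups were read from mean log2 CPM with a prior count of 2. Same-numbered replicates of different groups did not deviate together, with r over 0.1 in 0 of 18 pairs, so the replicate number was not used as a block.

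Named genes were, by rule, up to 4 of each single-group class by size of the interaction (mean of at least 10 CPM in the highest group, no overlap of the deviating libraries), up to 3 called members of each list, and genes the study measured; further members were picked once values were known. The 44 function lists and 10 marker lists, like the contrast, were chosen with earlier results of these data known. Some members are counted but not reported by name here. Alternatives were DESeq2 1.42.0, RLE and upper quartile scaling, other filters, other fold thresholds, the replicate block, a fit without robust estimation, other rules for the deviating group, the linear scale, and each library left out in turn.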

Additional observations from a re-analysis of the deposited data

Results flagged for a closer look

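The difference between the culture responses of SI and LI was itself tested, gene by gene, and 2242 genes were called higher and 1667 lower. Among the 151 named genes, 23 were called in opposite directions in the 2 regions, 16 with a rise in SI and a fall in LI and 7 with the reverse; the test of the difference was edgeR's quasi-likelihood test with Benjamini-Hochberg adjustment. Groups of 3 libraries are too small for a test of single outlying values, and none was run.

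Of the 16 that rose in SI and fell in LI, the interaction was 8.22 for Sptssb, 7.48 for Plet1, 7.18 for Stc2, 6.97 for Abca12 and 3.35 for Etv5, where SI tissue stood low. It was 4.95 for Gstm3, 4.66 for Nos2 and 3.26 for Bnip3, where SI monolayers stood high, and 8.57 for Casp14 and 4.94 for Cldn8, where LI tissue stood high. It was 6.73 for Gstm1, 6.72 for Cldn2 and 3.86 for Aldh1a1, where LI monolayers stood low, and 7.78 for Scd2, 3.79 for Guca2a and 3.47 for Fdps, which were crossed.

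Of those that fell in SI and rose in LI, the interaction was -12.44 for Cyp1a1, -6.68 for Cubn, -5.84 for Sphk1 and -3.41 for Nts, where LI tissue stood low, and -6.25 for Il18r1 and -3.83 for Basp1.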

How the results depend on the processing

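The number of called genes stayed between 3674 (without LI tissue replicate 3) and 3997 (without LI tissue replicate 1) when 1 library was left out, with 2147 to 2476 higher and 1282 to 1815 lower. It was 4106 with DESeq2, 3909 with RLE scaling, 3938 with upper quartile scaling, 3850 without a filter and 2822 with at least 10 counts in every library. With the replicate number as a block it was 3807 (2196 higher and 1611 lower). By deviation from the group mean, 3 of 12 libraries correlated best with their own number, which cannot show whether SI and LI libraries shared a mouse. Without a minimum fold change 9069 genes were called, 4559 higher and 4510 lower, and the single-group classes then held 663 (SI tissue high), 524 (SI tissue low), 333 (SI monolayers high), 301 (SI monolayers low), 1148 (LI tissue high), 944 (LI tissue low), 1010 (LI monolayers high) and 1396 (LI monolayers low) genes. With a log2 fold change of at least 2, 1930 genes were called, 1150 higher and 780 lower, and the classes in the same order held 216, 110, 65, 78, 392, 99, 203 and 395. When the deviating group had to be called in its pairwise comparisons, the classes held 204, 109, 67, 70, 385, 130, 200 and 368, and with a largest gap of at least 1, LI tissue low held 163. With 1 library left out, SI tissue high held 286 to 407 genes, SI tissue low 224 to 263, SI monolayers high 141 to 153, SI monolayers low 124 to 153, LI tissue high 656 to 791, LI tissue low 202 (without SI monolayers replicate 1) to 401 (without LI tissue replicate 1), LI monolayers high 328 to 384 and LI monolayers low 706 to 864. The cause of these shifts was not tested, but the median interaction over all genes moved from -0.000208 to between 0.0957 and 0.118 when a monolayer library was left out and to 0.0791 with upper quartile scaling. Of 142 called named genes, 130 kept their call and sign whichever library was left out, and 0 changed sign. Uncalled genes that changed sign were Mki67, which ranged from -0.163 to 0.0940 with 1 library left out and stood at 0.0228, 0.0115 and 0.0394 without SI monolayers replicates 1, 2 and 3, 0.00488 without LI tissue replicate 1, and 0.0940 and 0.0409 without LI monolayers replicates 1 and 3, and Cyp3a11, which ranged from -1.10 to 0.122 and stood at 0.122 without LI tissue replicate 3 and 0.0929 without LI monolayers replicate 2. Depth limits the genes with a group at 0, whose fitted values depend on the prior count.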
